A study of Mus musculus with 9 samples.

Results

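The vacuolar proton pump, or V-ATPase, was followed through 10 of its subunit genes, 6 from the V1 sector (Atp6v1a, Atp6v1b2, Atp6v1c1, Atp6v1d, Atp6v1e1 and Atp6v1h) and 4 from the V0 sector (Atp6v0a1, Atp6v0c, Atp6v0d1 and Atp6v0d2). They were taken by symbol from the count tables of 9 libraries, which list 55367 symbols, and 10 of 10 had enough counts to be tested among 13707 genes. The libraries are polyA RNA of adult mouse monocytes that had spent 4 h in a control buffer, with adult platelets or with P7 platelets, and had then been washed. In mouse work P7 usually stands for postnatal day 7. Each group holds 3 libraries. The labels give no strain, sex or genotype, nor how monocytes and platelets were obtained. Whether the 3 libraries of a group stem from separate animals or cultures is not stated either, and p-values then reflect no more than the spread among these libraries, which may be technical.

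The V-ATPase is a rotary motor in the membranes of lysosomes, endosomes and other compartments. Its V1 sector burns ATP on the cytosolic side and turns a central stalk, and its V0 sector in the membrane uses that rotation to carry protons across, which acidifies the compartment. Monocytes and macrophages use this acid to activate lysosomal proteases and break down what they take up. Several subunits come from alternative genes with tissue-restricted use, and many pump and lysosome genes hold an E-box with the letters CACGTG near their start, a site bound by transcription factors of the TFEB family.

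Promoter windows, from 250 bases before to 50 after the transcription start, were read from RefSeq's mouse assembly GRCm38.p6 and exist in that table for 6 of the 10 genes (8 windows). The sequences shown are of the genes whose promoters are compared for the E-box: Atp6v1a and Atp6v0d1, whose windows hold it, and Atp6v1e1 and Atp6v0c, whose windows do not. They run 5′ to 3′ on the gene's own strand, which is the minus strand for all 4, and cover the longest stretch of the window outside the gene's exons in GENCODE M21. Capitals mark CACGTG.
Atp6v1a: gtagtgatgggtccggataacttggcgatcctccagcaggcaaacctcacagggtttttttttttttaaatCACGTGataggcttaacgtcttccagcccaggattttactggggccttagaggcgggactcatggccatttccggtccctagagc
Atp6v0d1: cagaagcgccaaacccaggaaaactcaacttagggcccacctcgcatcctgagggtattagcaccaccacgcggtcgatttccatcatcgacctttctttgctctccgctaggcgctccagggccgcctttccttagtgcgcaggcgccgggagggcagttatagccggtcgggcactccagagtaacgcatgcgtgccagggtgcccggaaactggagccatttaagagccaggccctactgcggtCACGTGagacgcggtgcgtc
Atp6v1e1: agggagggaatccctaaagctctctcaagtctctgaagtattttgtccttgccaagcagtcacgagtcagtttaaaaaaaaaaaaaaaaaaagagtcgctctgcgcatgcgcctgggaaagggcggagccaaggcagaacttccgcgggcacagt
Atp6v0c: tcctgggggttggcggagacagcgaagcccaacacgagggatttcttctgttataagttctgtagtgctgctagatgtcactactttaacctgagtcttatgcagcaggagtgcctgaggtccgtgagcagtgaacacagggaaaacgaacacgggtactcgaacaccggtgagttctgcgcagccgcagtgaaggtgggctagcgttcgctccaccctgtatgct
The stretches lie at chr16:44139306-44139461, chr8:105566048-105566314, chr6:120822794-120822948 and chr17:24169703-24169928, in that order.

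The letters CACGTG, which read the same on both strands, were found in the windows of 2 of the 6 genes. In Atp6v1a the motif begins at position -131 from the RefSeq start and in Atp6v0d1 at -3. Both matches are part of the longer palindrome TCACGTGA. Among other subunit and accessory genes of the pump with windows, CACGTG was found in 2 of 13 (16 windows), Atp6v0b and Atp6v0e. Of all 32851 mouse promoter windows, 2349 (7.15%) hold CACGTG and 320 (0.974%) hold TCACGTGA. These shares are per window, whereas the counts are per gene. A match is only a description of the letters. The windows of Atp6v0a1, Atp6v1d, Atp6v0c and Atp6v1e1 hold no CACGTG. The Atp6v1a and Atp6v0a1 windows lie wholly inside these genes in GENCODE M21, which start at 44139705 and 101009452. Bases before those GENCODE starts were not searched, and the Atp6v1a motif lies downstream of its GENCODE start.

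Levels are normalised CPM, the counts of a gene scaled by the library total and by a TMM factor to a common library size, and errors are SD over n = 3 libraries. Library totals ranged from 29687341 to 37065564 reads. TMM factors were 1.07 to 1.10 in control, 1.02 to 1.05 in adult platelet and 0.882 to 0.903 in P7 platelet libraries, so a P7 value is raised by this scaling relative to control. Monocyte markers (9 of 9 detected), most of whose reads are Lyz2, summed to 24540 to 27095 CPM of the library total in control, 26261 to 30670 with adult and 24271 to 29436 with P7 platelets. On the scale used for the members, 3 of these 9 were called higher and 1 lower with adult platelets (median log2 fold change 0.22), and 7 higher and 1 lower (Ccr2) with P7 platelets (median 0.57). Of all tested genes 14.3% were called higher and 12% lower with adult platelets, and 29.9% and 29.3% with P7 platelets. The part of the monocyte markers' movement in the members' changes was not tested. Erythroid transcripts (5 of 5 detected) summed to 8.81 to 11.7, 481 to 1797 and 43551 to 55035 CPM. Platelet transcripts summed to 24.6 to 27.8, 570 to 972 and 1043 to 1195 CPM, with Gp1bb and Gp6 at 0 in control. Osteoclast markers stayed under 17.6 CPM in sum, and T and NK cell markers under 1.10 CPM. The B and plasma cell marker Igkc was at 410 to 772 CPM in 4 libraries (the first replicate of each group and the third with adult platelets) and at 123 to 172 CPM in the other 5. In such bulk libraries fewer cells of a type and less RNA per cell cannot be told apart.

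In control monocytes 9 of the 10 genes were well expressed and Atp6v0d2 was nearly absent. Levels of different genes can be compared only per length, and on that scale (normalised CPM per kb of exon) Atp6v0d1 was highest at 79.1 ± 2.43, followed by Atp6v1b2 at 61.5 ± 3.09. Atp6v0c at 38.6 ± 1.41 and Atp6v1a at 38.5 ± 0.27 came next, and their control libraries overlapped. Atp6v1e1 stood at 33.1 ± 0.74, Atp6v1d at 18.3 ± 0.65 and Atp6v1c1 at 14.1 ± 0.11. The lowest were Atp6v1h at 6.72 ± 0.13, Atp6v0a1 at 5.58 ± 0.18 and Atp6v0d2 at 0.11 ± 0.11. Apart from the pair Atp6v0c and Atp6v1a, neighbours in this order did not overlap between control libraries.

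Where a subunit has several genes, the reads came mostly from 1 of them. For the membrane subunit a, Tcirg1, which encodes the a3 form, held 74.6% of the control level per length, Atp6v0a2 17.8% and Atp6v0a1 7.68%, and Atp6v0a4 had no read. In adult platelet libraries the share of Atp6v0a1 was 9.57% ± 0.89, above each control library (7.68% ± 0.56), and in P7 platelet libraries it was 7.66% ± 0.40. Atp6v1b1, the B isoform of kidney and inner ear, had no read in any library, so the B subunit reads were those of Atp6v1b2. Of subunit d, Atp6v0d2 held 0.142% ± 0.141 in control, 0.112% ± 0.113 with adult and 0.289% ± 0.036 with P7 platelets. Control libraries overlapped with both other groups. The control and adult platelet means rest on 1 library each, control replicate 3 at 0.304% against 0.0453% and 0.0758%, and adult platelet replicate 3 at 0.243% against 0.0385% and 0.0558%. The alternative C and E genes had 5 reads (Atp6v1c2) and 4 reads (Atp6v1e2) in all 9 libraries together.

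With adult platelets, 6 of the 10 members were called higher than control and 0 lower (edgeR quasi-likelihood test, Benjamini-Hochberg adjusted p below 0.05), against 14.3% of all tested genes called higher and 12% called lower. These 6 were Atp6v0a1, Atp6v0c, Atp6v1c1, Atp6v1d, Atp6v1e1 and Atp6v1h. The members' median log2 fold change was 0.19, beside -0.00 over all tested genes. With P7 platelets 6 were again called higher than control and 0 lower, where 29.9% of all genes were called higher and 29.3% lower, and the median was 0.45 beside -0.01. These 6 hold Atp6v1a in place of Atp6v1d. With adult platelets the lower count was also 0 at an unadjusted p below 0.05, with the DESeq2 Wald test and with limma-voom. With P7 platelets these also gave 0, but Atp6v0d1 was called lower in 7 of 22 alternatives. With the replicate number as a block the count was 7 higher and 1 lower, with Atp6v1b2 added as higher and Atp6v0d1 as lower. That fit called 31.6% of all genes higher and 30.9% lower. Library totals called 4 higher and 2 lower, Atp6v0d1 and Atp6v1d, beside 16% and 49.9% of all genes. Between both kinds of platelets, 5 members were higher with P7 platelets (19.7% of all genes) and 1 was lower (19.8% of all genes), with a median of 0.24 beside -0.02. The first pair of comparisons shares the control libraries, and each of the 3 comparisons shares libraries with the others. Changes were small: the largest called one was a 1.53-fold rise.

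**Figure D1:**
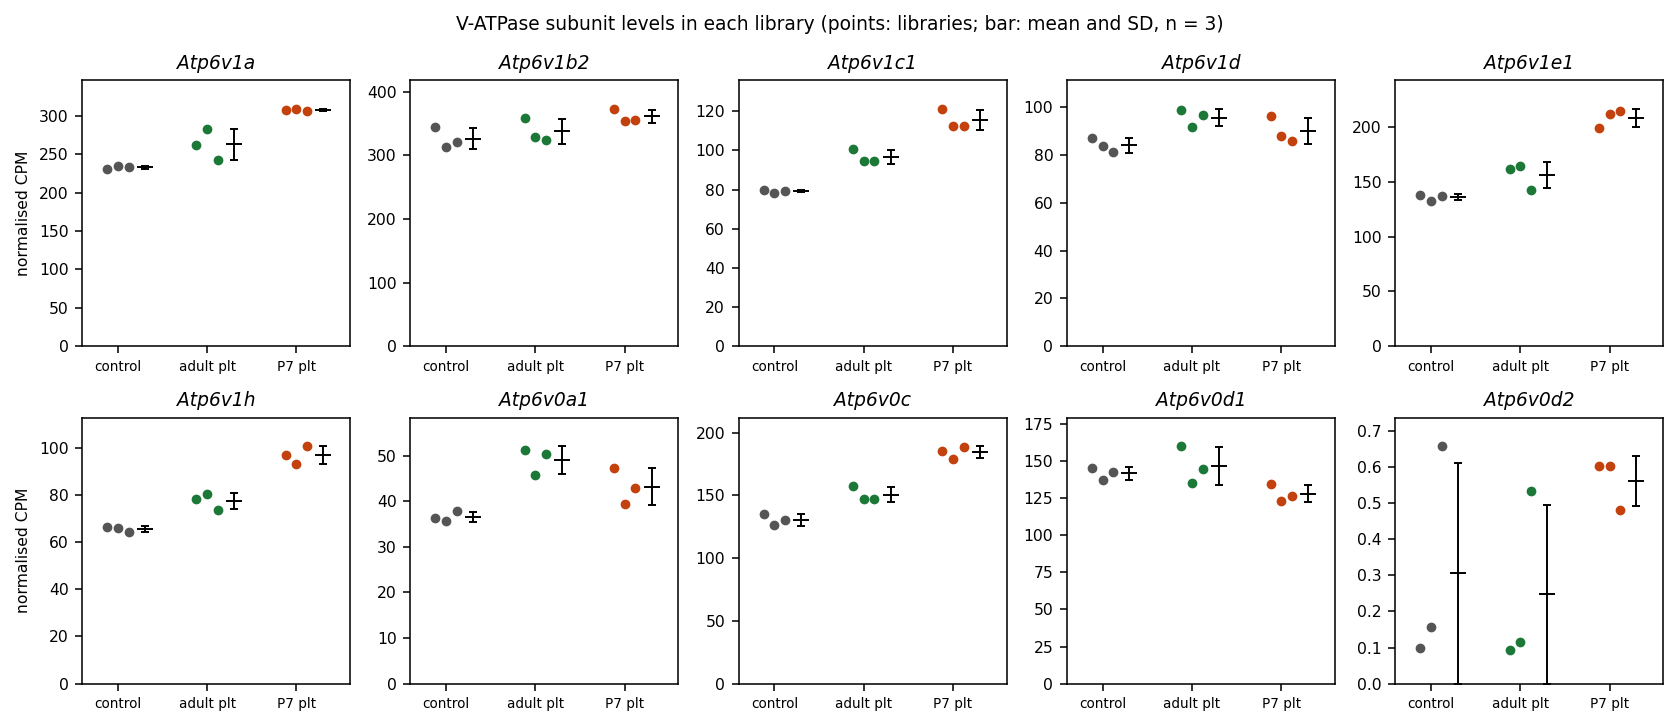
Normalised CPM of each subunit gene (vertical axis, linear from 0, own scale per panel) in the 3 control, 3 adult platelet and 3 P7 platelet libraries; points are libraries and bars the mean ± SD, cut at 0 for Atp6v0d2. The groups of Atp6v1a, Atp6v1c1, Atp6v1e1, Atp6v1h and Atp6v0c follow each other from control to P7 without overlap, and those of the other genes do not.

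Atp6v1a (chr16:44085402-44139705, minus strand) encodes subunit A, which binds and splits ATP. Its normalised CPM was 231, 234 and 233 in control replicates 1 to 3, 262, 283 and 242 with adult platelets and 308, 309 and 306 with P7 platelets. The 3 groups did not overlap, and the adult platelet libraries varied most. Atp6v1a was higher with P7 platelets than in control by 0.40 ± 0.06 on the log2 scale (SE, adjusted p = 0.0003) and higher than with adult platelets by 0.23 ± 0.06 (adjusted p = 0.0128). Adult platelets against control gave 0.17 ± 0.06, which missed the threshold (adjusted p = 0.0543). That comparison passed without adult platelet replicate 3, the lowest of its group (0.23, adjusted p = 0.0146).

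Atp6v1b2 (chr8:69088646-69113711, plus strand) encodes subunit B, which alternates with A in the ring of V1. The gene had the most reads of all members, with 345, 314 and 320 normalised CPM in control, 359, 329 and 324 with adult platelets and 373, 354 and 356 with P7 platelets. Adult platelet libraries overlapped with both other groups, and each P7 library lay above each control library. No comparison passed the threshold: 0.05 ± 0.06 for adult platelets against control (adjusted p = 0.585), 0.15 ± 0.06 for P7 platelets against control (adjusted p = 0.0582) and 0.10 ± 0.06 for P7 against adult platelets (adjusted p = 0.226). The 95% interval of the P7 difference from control ran from 0.01 to 0.28. With the replicate number as a block over all 9 libraries, that difference was called (0.15, adjusted p = 0.0184). It was called in 10 of 22 alternatives, this block among them, and in 3 of 9 fits without 1 library. Library totals gave -0.13. Subunits A and B, which form the same ring, thus had differences of 0.40 and 0.15 in the same libraries. Whether these differ was not tested.

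Atp6v1e1 (chr6:120794305-120822793, minus strand) encodes subunit E1, part of the peripheral stalks that hold V1 still against V0. Normalised CPM was 138, 133 and 137 in control, 162, 164 and 143 with adult platelets and 199, 212 and 215 with P7 platelets. P7 libraries stood clear above both other groups, and adult platelet replicate 3 lay close to control. The P7 difference from control was 0.62 ± 0.06 (adjusted p = 3.33e-05), the largest called change of any member, and that from adult platelets was 0.41 ± 0.06 (adjusted p = 0.000928). With adult platelets it was higher by 0.20 ± 0.06 (adjusted p = 0.0410), a call that was kept in only 2 of 9 fits that left out 1 library each (adjusted p up to 0.140).

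Atp6v1c1 (chr15:38661933-38692446, plus strand) encodes subunit C1, which joins the stalks to V0 and comes off when the pump is taken apart. Its values were 79.6, 78.5 and 79.4 normalised CPM in control, 101, 94.5 and 94.7 with adult platelets and 121, 112 and 112 with P7 platelets. The groups were separate in all 3 pairs, with a narrow control group. The log2 differences were 0.29 ± 0.05 for adult platelets (adjusted p = 0.00299), 0.54 ± 0.05 for P7 platelets (adjusted p = 1.73e-05) and 0.26 ± 0.05 between both (adjusted p = 0.00298). Each of these calls held in 9 of 9 fits without 1 library.

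Atp6v1h (chr1:5070018-5162529, plus strand) encodes subunit H, which is needed for activity and keeps free V1 from splitting ATP. Its normalised CPM was 66.4, 66.1 and 64.1 in control, 78.4, 80.4 and 73.7 with adult platelets and 97.0, 93.0 and 101 with P7 platelets. As for Atp6v1c1, no pair of groups overlapped. Atp6v1h was higher by 0.24 ± 0.05 with adult platelets (adjusted p = 0.0080) and by 0.56 ± 0.05 with P7 platelets (adjusted p = 1.68e-05). P7 exceeded adult platelets by 0.32 ± 0.05 (adjusted p = 0.00111). The exons share 127 bp with Rgs20 on the opposite strand, which had 1 read in all libraries, and the 32 bp that Atp6v1e1 shares with Slc25a18 belong to a gene with 4 reads.

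Atp6v1d (chr12:78840725-78861638, minus strand) encodes subunit D of the central stalk, the axle that turns inside V1. Normalised CPM was 87.2, 83.8 and 81.1 in control, 98.9, 91.7 and 96.7 with adult platelets and 96.2, 88.1 and 86.1 with P7 platelets. Adult platelet libraries lay above control, and P7 libraries overlapped with both. The difference was 0.19 ± 0.06 for adult platelets (adjusted p = 0.0374), 0.10 ± 0.06 for P7 platelets (adjusted p = 0.155) and -0.09 ± 0.06 for P7 against adult platelets (adjusted p = 0.259). The adult platelet call held in 4 of 9 fits without 1 library (adjusted p up to 0.134).

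Among the V0 genes, Atp6v0c (chr17:24163866-24169702, minus strand) encodes the proteolipid that forms most of the rotating ring and carries the protons. It had 136, 126 and 130 normalised CPM in control, 157, 147 and 147 with adult platelets and 185, 179 and 189 with P7 platelets. The groups followed each other without overlap. The rise was 0.20 ± 0.05 with adult platelets (adjusted p = 0.0158) and 0.50 ± 0.05 with P7 platelets (adjusted p = 3.13e-05). P7 exceeded adult platelets by 0.29 ± 0.05 (adjusted p = 0.00165). In fits without control replicate 2 (adjusted p = 0.0796) or without the third control library (adjusted p = 0.0605), Atp6v0c missed the threshold for adult platelets. The pseudogenes Atp6v0c-ps1 and Atp6v0c-ps2 had at most 7 reads per library, and how reads were split among these copies is uncertain.

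Atp6v0d1 (chr8:105524465-105566047, minus strand) encodes the common form of subunit d, which couples the central stalk to the ring. Its values were 146, 137 and 143 normalised CPM in control, 160, 135 and 145 with adult platelets and 135, 123 and 127 with P7 platelets. P7 libraries lay below both other groups, though the highest P7 and the lowest adult platelet library nearly met. The difference of P7 from adult platelets, -0.19 ± 0.07, was called (adjusted p = 0.0446) in the fit to all libraries, but in only 2 of 9 fits without 1 library (adjusted p up to 0.151). P7 platelets against control gave -0.15 ± 0.07 (adjusted p = 0.0882), and with the replicate block -0.15 (adjusted p = 0.0216). For adult platelets against control it was 0.05 ± 0.07 (adjusted p = 0.634).

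Atp6v0d2 (chr4:19876841-19922605, minus strand) encodes the form of subunit d known from osteoclasts and some macrophages. It had 4, 6 and 26 reads in control, 3, 4 and 18 with adult platelets and 18, 16 and 15 with P7 platelets, 110 reads in all. In normalised CPM this was 0.10, 0.16 and 0.66, then 0.09, 0.11 and 0.53, then 0.60, 0.60 and 0.48. In control and adult platelet libraries replicate 3 stood far above the other two, and all 3 pairs of groups overlapped. The difference was 0.87 ± 0.72 for P7 platelets against control (adjusted p = 0.327), with a 95% interval from -0.75 to 2.49, which holds changes of either sign. Adult platelets gave -0.30 ± 0.78 (adjusted p = 0.809) and P7 against adult platelets 1.17 ± 0.75 (adjusted p = 0.253). Without control replicate 3, the P7 difference was 2.10 and passed (adjusted p = 0.0358). The other osteoclast markers were also low: Calcr was at 0 in control and adult platelet libraries, and in CPM of the library total Acp5 stood at 3.48 to 4.29 in control and 10.6 to 13.3 with P7 platelets, Ctsk at 1.65 to 1.78 and 1.89 to 2.07, and Ocstamp at 1.56 to 1.95 and 1.48 to 2.02. With adult platelets Acp5 was at 4.77 to 6.73, Ctsk at 1.34 to 3.15 and Ocstamp at 2.97 to 5.92. Of the 3 osteoclast markers tested, 2 were called higher with adult platelets than in control (median log2 fold change 0.62, beside 14.3% of all genes). With P7 platelets 1 (Acp5) was called higher than in control (median 0.49, beside 29.9% of all genes). Against adult platelets 1 (Acp5) was higher and 1 (Ocstamp) lower with P7 platelets, beside 19.7% and 19.8% of all genes. The part of these markers in the Atp6v0d2 values was not tested.

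Atp6v0a1 (chr11:101009452-101063719, plus strand) encodes isoform a1 of the subunit that forms the proton half-channels. It had its highest values with adult platelets, at 51.3, 45.7 and 50.3 normalised CPM, against 36.3, 35.6 and 37.9 in control and 47.4, 39.3 and 43.0 with P7 platelets. Both platelet groups lay above control and overlapped with each other. Atp6v0a1 rose by 0.42 ± 0.07 with adult platelets (adjusted p = 0.00342), the largest adult platelet change among the members. With P7 platelets it was higher by 0.24 ± 0.07 (adjusted p = 0.0186), and the difference between P7 and adult platelets was -0.18 ± 0.07 (adjusted p = 0.0785). Fits that left out 1 library each kept the P7 call in 6 of 9 cases and missed the threshold without control replicate 1, control replicate 2 or P7 replicate 1 (adjusted p from 0.0518 to 0.0647).

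**Figure D2:**
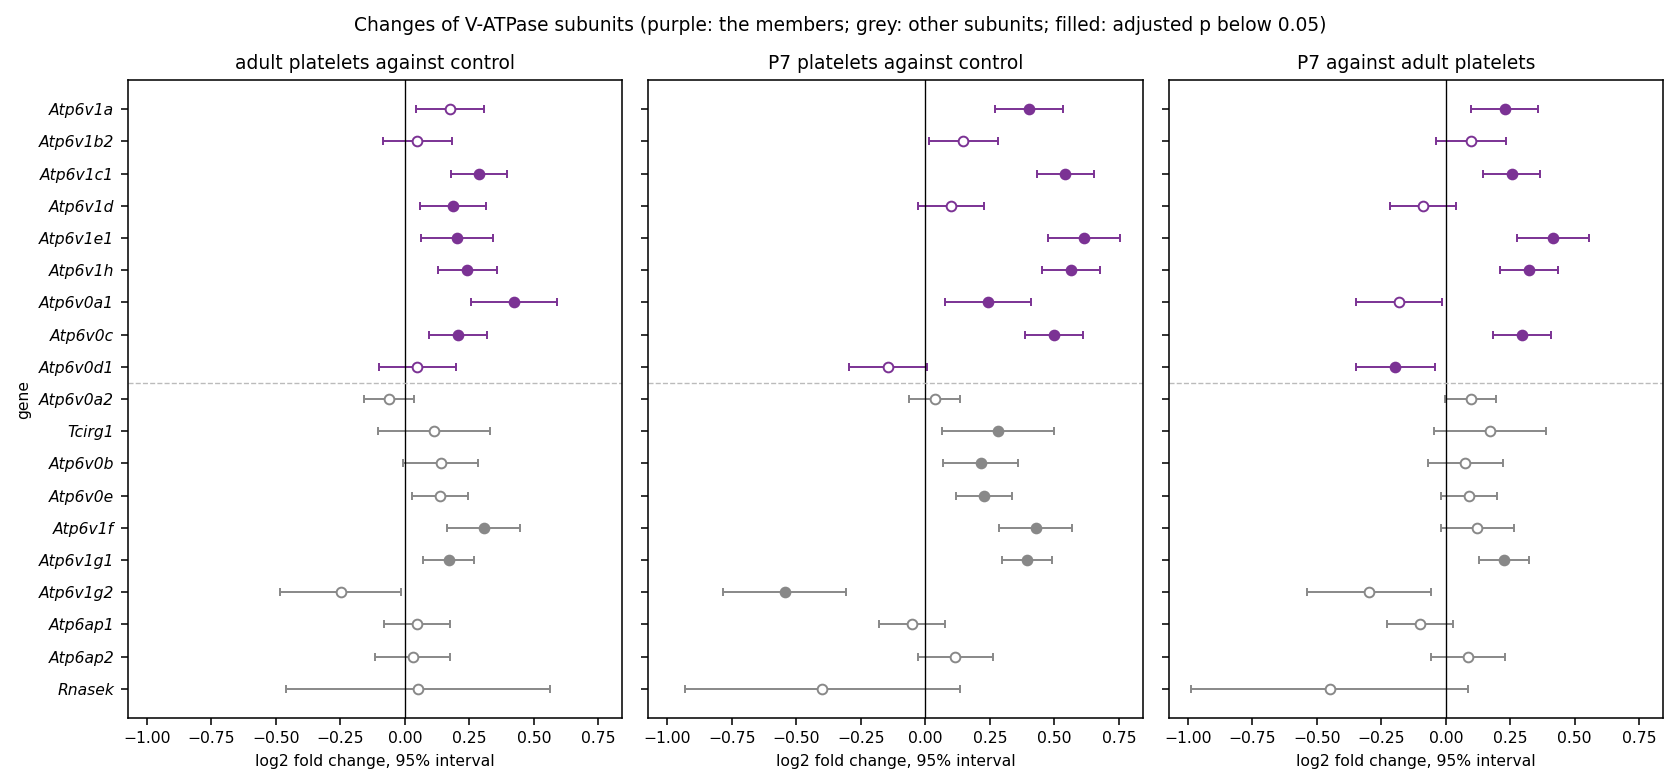
Log2 fold change (horizontal axis) with its 95% interval in the 3 comparisons for 9 members (purple, without Atp6v0d2, whose interval is too wide for the axis) and 10 other subunit genes (grey); filled points have an adjusted p below 0.05 and the vertical line marks 0. With P7 platelets against control Atp6v1e1, Atp6v1h, Atp6v1c1 and Atp6v0c lie between 0.50 and 0.62, and Atp6v0d1 lies at -0.15.

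By direction, 4 members (Atp6v0c, Atp6v1c1, Atp6v1e1 and Atp6v1h) were called higher in all 3 comparisons, which share libraries. Of all tested genes 6.37% were. The groups of libraries did not overlap, higher than control, for 7 members with adult platelets (21.8% of all genes) and for 7 with P7 platelets (34.5% of all genes). Lower than control without overlap were 0 members with adult platelets (20.9% of all genes) and 1, Atp6v0d1, with P7 platelets (34.7% of all genes). Between P7 and adult platelets 5 members lay higher (24.2% of all genes) and 1 lower (24.8% of all genes) without overlap. Summed over the 6 V1 genes, normalised CPM was 924 ± 20.5 in control, 1027 ± 46.4 with adult and 1180 ± 13.4 with P7 platelets. The 4 V0 genes summed to 309 ± 9.47, 347 ± 20.8 and 356 ± 12.9. The V1 sums of the groups did not overlap, and the V0 sums of both platelet groups overlapped with each other.

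How the reads of the 10 genes divide among them can be read without any scaling between libraries, as each gene's share of their summed reads. These shares are not corrected for length and leave out other subunit genes such as Tcirg1 and Atp6v0b. They are therefore compared only between groups for the same gene. Atp6v0d1 went from 11.5% ± 0.14 in control to 10.7% ± 0.72 with adult and 8.34% ± 0.25 with P7 platelets, and Atp6v1b2 went from 26.4% ± 0.71 to 24.6% ± 0.55 and 23.5% ± 0.35, with no overlap between any groups for either gene. Atp6v1h went the other way, from 5.31% ± 0.13 to 5.64% ± 0.20 and 6.31% ± 0.22, and Atp6v1c1 from 6.42% ± 0.11 to 7.04% ± 0.15 and 7.51% ± 0.23, also without overlap. Atp6v1e1 held 11.0% ± 0.14, 11.4% ± 0.57 and 13.6% ± 0.73, with P7 libraries above all others. Atp6v1d held 6.81% ± 0.17, 6.98% ± 0.33 and 5.87% ± 0.28, with P7 libraries below all others. A share can move because another member moves, so these values describe unequal change within the set.

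**Figure D3:**
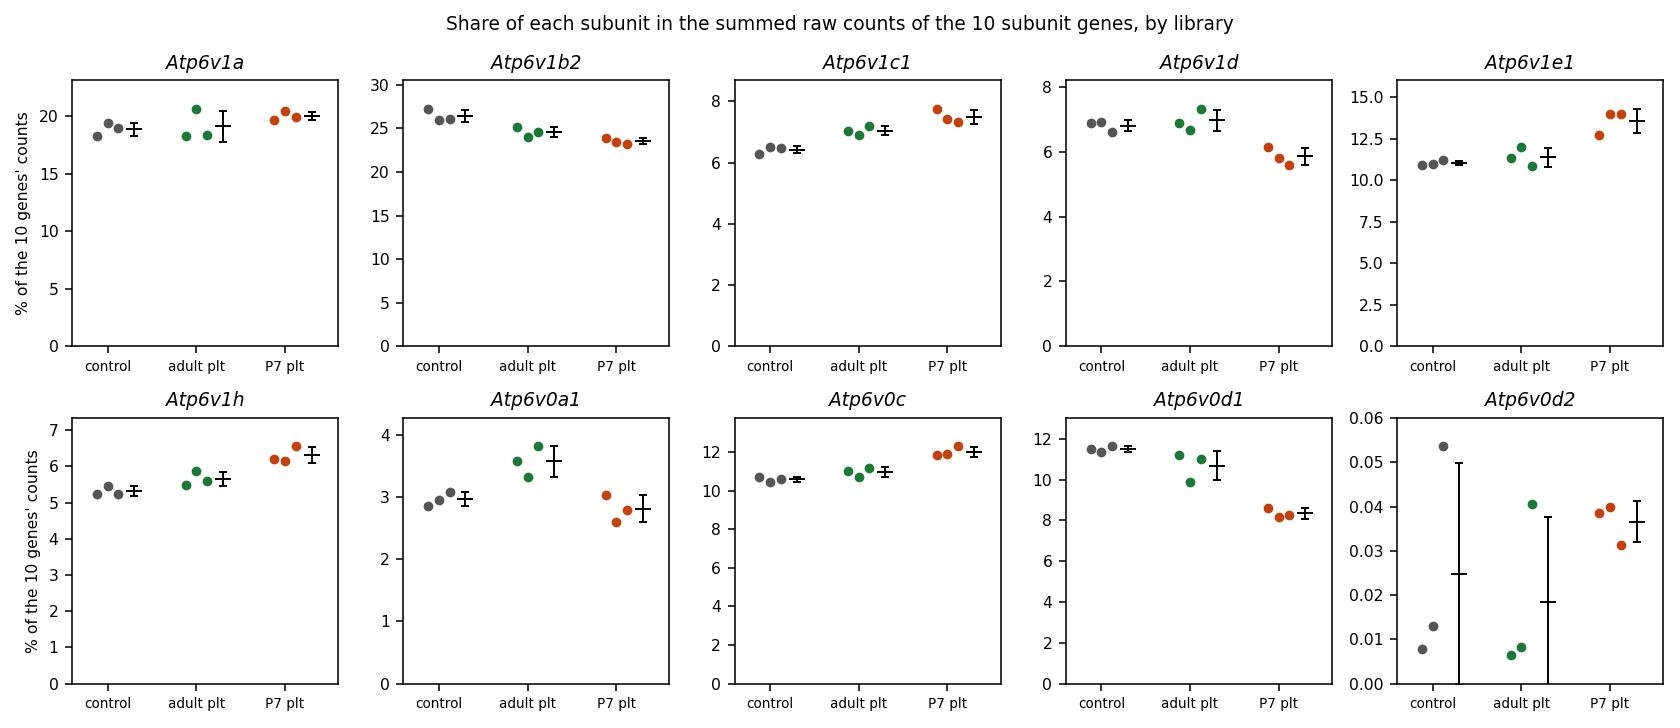
Share of each gene in the summed raw reads of the 10 subunit genes (vertical axis, percent, own scale per panel) by library, with mean ± SD over 3 libraries per group, cut at 0 for Atp6v0d2. The share of Atp6v0d1 goes from 11.5% in control to 8.34% with P7 platelets, and that of Atp6v1e1 from 11.0% to 13.6%.

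The scaling of the libraries moved the P7 results. With library totals alone, in place of TMM, the median of all genes in P7 platelets against control moved to -0.29, and 2193 genes were called higher and 6846 lower, against 4097 and 4014 with TMM. Upper-quartile factors gave -0.12, with 3279 higher and 5012 lower. With library totals 4 members remained called higher: Atp6v0c (0.22), Atp6v1c1 (0.27), Atp6v1e1 (0.34) and Atp6v1h (0.29). Atp6v1a was then at 0.13 (adjusted p = 0.0602), and Atp6v0d1 (-0.42, adjusted p = 0.000731) and Atp6v1d (-0.18, adjusted p = 0.0422) were called lower. A change of scaling moves every gene by about the same amount, so it does not bear on the difference of 0.46 between the members' median and that of all genes. In CPM of the library total the 10 genes together held 1334 ± 49.6 in control, 1421 ± 54.7 with adult and 1371 ± 34.5 with P7 platelets. After removal of platelet, erythroid and mitochondrial transcripts before scaling, the counts of members called were again 6 higher and 0 lower with P7 and with adult platelets. Of all genes 30% and 29.4% were then called with P7, and 14.3% and 12.1% with adult platelets. That fit drops only the rows of those transcripts, so members' reads brought in by platelets or red cells stay in it. The part of such reads in the members' changes was not tested.

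For P7 against adult platelets library totals moved the median of all genes to -0.24, with 1427 higher and 5963 lower, against 2706 and 2718 with TMM, and upper-quartile factors gave 2106 higher and 3556 lower. Only Atp6v1e1 was then called higher with library totals (0.20, adjusted p = 0.0139), and Atp6v0a1 (-0.40), Atp6v0d1 (-0.41) and Atp6v1d (-0.30) were called lower. For adult platelets against control the shift was -0.07, with 1291 higher and 2278 lower in place of 1966 and 1651. There 3 members were called higher, beside 9.42% of all genes. That count was also 3 without control replicate 2 or without control replicate 3. Those fits called 7.99% and 8.58% of all genes higher, where the main fit called 14.3%.

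**Figure D4:**
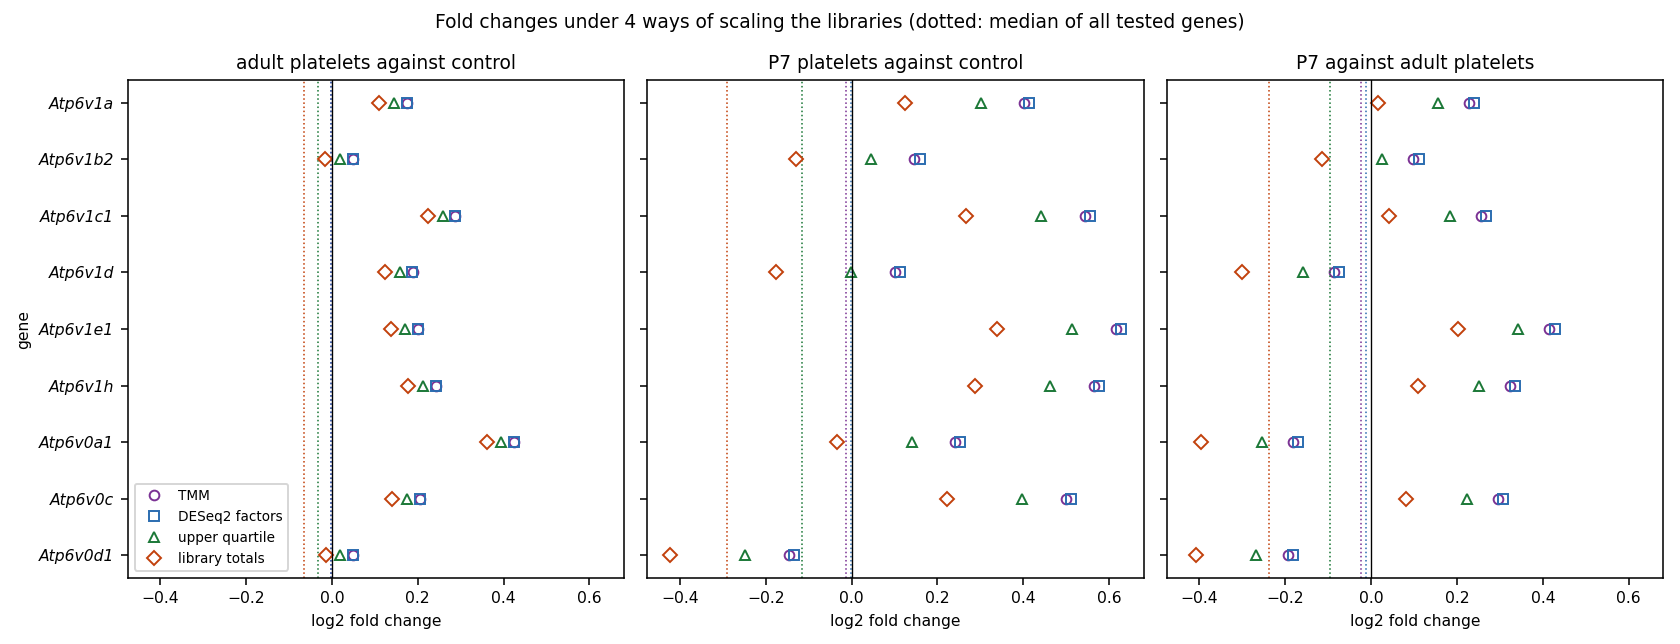
Log2 fold changes (horizontal axis) of 9 subunit genes, without Atp6v0d2, in the 3 comparisons under TMM, DESeq2 size factors, upper-quartile factors and library totals; dotted lines mark the median of all tested genes under each. In P7 platelets against control every scaling shifts all genes together, and Atp6v0c, Atp6v1c1, Atp6v1e1 and Atp6v1h stay above 0.2 throughout.

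Of 16 other subunit genes and accessory proteins of the pump, 10 had enough reads to be tested. With adult platelets 2 were called higher (14.3% of all genes), Atp6v1f (0.31 ± 0.06, adjusted p = 0.00752) and Atp6v1g1 (0.17 ± 0.04, adjusted p = 0.0194), and 0 lower, with a median of 0.08. That count was 1 without any 1 of the control libraries, where 7.99% to 11.4% of all genes were called higher. With P7 platelets 5 were higher (29.9% of all genes): Atp6v1f (0.43), Atp6v1g1 (0.39), Tcirg1 (0.28), Atp6v0e (0.23) and Atp6v0b (0.21). Atp6v1g2, the G isoform of neurons, was the 1 called lower (-0.55 ± 0.11, adjusted p = 0.00171), and the median was 0.17. Of subunit G per length, Atp6v1g2 held 4.15% ± 0.19 in control, 3.14% ± 0.15 with adult and 2.21% ± 0.04 with P7 platelets, without overlap. Between P7 and adult platelets 1 gene, Atp6v1g1, was called (0.22, adjusted p = 0.00315). With library totals the P7 count was 1 higher (Atp6v1g1) and 4 lower, beside 16% and 49.9% of all genes. Upper-quartile factors gave 2 higher and 2 lower, beside 23.9% and 36.6% of all genes. Without control replicate 2 or P7 replicate 3 the P7 count was 3 higher, beside 26.1% of all genes in each fit. Without adult platelet replicate 1 the count between P7 and adult platelets was 4 higher, beside 18.7% of all genes.

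Genes of the TFEB family encode transcription factors that can bind the E-box, and binding was not measured here. With P7 platelets Tfe3 (0.61 ± 0.07, adjusted p = 7.7e-05), Mitf (0.89 ± 0.09, adjusted p = 2.8e-05) and Tfec (0.98 ± 0.15, adjusted p = 0.000481) were higher than control, and Tfeb stood at -0.23 ± 0.13 (adjusted p = 0.154). Adult platelets gave higher Tfe3 (0.28) and Tfec (0.71) and lower Mitf (-0.36 ± 0.09, adjusted p = 0.0163). Of all tested genes 29.9% were called higher with P7 platelets, and 14.3% higher and 12% lower with adult platelets. In normalised CPM, Mitf was 48.2, 46.9 and 51.4 in control, 39.9, 41.8 and 32.7 with adult platelets and 85.6, 93.6 and 91.6 with P7 platelets. Its 3 groups did not overlap, with the adult platelet group lowest. The directions and calls of Tfe3, Mitf and Tfec were the same with upper-quartile factors and library totals, and Tfeb was then lower with P7 platelets under library totals (-0.51, adjusted p = 0.00936). Without control replicate 1 or 2 or adult platelet replicate 1 or 2, 1 of the 4 was called higher with adult platelets, beside 7.99% to 13% of all genes. The lower call of Mitf was missed without control replicate 3, where 7.28% of all genes were called lower.

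Of 26 lysosomal genes of the TFEB network, all tested, 4 were higher and 6 lower with adult platelets (median -0.08), where 14.3% and 12% of all genes were. With P7 platelets 4 were higher and 15 lower (median -0.23), where 29.9% and 29.3% of all genes were. The P7 counts were 3 and 17 with upper-quartile factors (23.9% and 36.6% of all genes) and 2 and 19 with library totals (16% and 49.9%). Without control replicate 2 the adult platelet counts were 1 and 4 (7.99% and 6.58% of all genes). Without adult platelet replicate 1 they were 2 and 7 (11.8% and 9.5%). The smallest p-values with P7 platelets belonged to Ctsb, a cathepsin (0.95 ± 0.06), Sgsh, a heparan sulphate sulphatase (-1.91 ± 0.13), Scarb2, the receptor that carries glucocerebrosidase to the lysosome (-0.76 ± 0.06), and Uvrag, a factor of autophagy (-0.96 ± 0.08). Of 10 tested assembly factors and regulators of the pump, 3 were higher and 3 lower with P7 platelets, about the shares of all genes (29.9% and 29.3%), and 2 and 7 with library totals (16% and 49.9%). Vma21, an assembly chaperone of V0, was higher (0.44 ± 0.06), and so was Dmxl2 (0.79 ± 0.13), while its partner Wdr7 (-0.996 ± 0.091) and Rogdi (-0.44 ± 0.11) were lower. Dmxl2, Wdr7 and Rogdi belong to the complex that puts V1 back on V0. Of 13 genes of nutrient signalling at the lysosome, among them those of Ragulator and the Rag proteins, 4 were higher and 5 lower with P7 platelets. With library totals the counts were 0 and 6. These counts too lie near the shares of all genes, apart from the 0 higher, beside 16% of all genes.

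The genes with the most similar pattern were found by Pearson's r with the members' mean centred log2 CPM over 9 libraries. Among genes with a mean log2 CPM of at least 2, they were Arhgef12 (0.969), S1pr1 (0.961), Pde5a (0.955), Pitrm1 (0.951) and Tpm1 (0.951). Atp6v0d2, with its few reads, weighs on that mean as much as any other member. Without it, a choice made after seeing the data, the closest were Psmd6 (0.996), Drg1 (0.993), Sqle (0.992), Magoh (0.992) and Sf3b6 (0.991). For Atp6v0d2 alone they were Specc1 (0.874), Ttc39b (0.868), Cux1 (0.841), Nsmce3 (0.839) and Gcc1 (0.835). The other 9 members did not follow 1 pattern, since r over their 36 pairs ran from -0.65 to 0.98 with a median of 0.51. These r values share the libraries and the group differences, and are descriptions.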

How the data were processed

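The authors deposited raw counts per gene symbol for each of 9 libraries, 3 per group. Per the labels' protocols the libraries are stranded polyA libraries read as single ends. Tools named in the submitters' processing notes, without roles, are Salmon 1.3.0, featureCounts, Subread 2.0.1, fastp 0.20.1 and STAR 2.7.6a. No source used here gives the build, the annotation or the strand setting. Positions and exon lengths come from GENCODE M21, promoters from RefSeq's table for GRCm38.p6.

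edgeR 4.0.16 (R 4.3.3) gave a quasi-likelihood fit of 3 group means over the 9 libraries, with TMM and filterByExpr (minimum count 10), with 13707 genes passing, 6 residual degrees of freedom and a biological coefficient of variation of 0.114. p-values were Benjamini-Hochberg adjusted over all genes of a comparison and called below 0.05. Precision is limited by 3 libraries per group, and reads carry no molecular identifiers. Alternatives were DESeq2 1.42.0 size factors and Wald test, limma 3.58.1 voom, upper-quartile factors, 2 other filters, a term for or subsets by Igkc (300 CPM), prior removal of transcripts of platelets, red cells and mitochondria, fits to 2 groups alone, a replicate block, and leaving out each library. Library totals alone were added after seeing the data.

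Deviations from group means of same-numbered libraries correlated at 0.54, 0.18 and 0.40 between control and P7 platelets. A block by replicate number was fitted beside the main fit. Any pairing by number is read from the data alone, since the labels do not say what a number marks. The block spans all 9 libraries, so it also joins the adult platelet libraries by number and is not a paired test of control and P7 alone. Numbers 2 and 3 are not told apart: control replicate 2 correlated at 0.26 with P7 replicate 3, and control replicate 3 at 0.37 with P7 replicate 2. The counts of calls come from the fit without this block, and values with it stand beside them where a call differs.

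The members and lists were chosen with earlier results of these data known. All 10 members and the other subunit and TFEB family genes were named whatever their values, and at most 4 of each other list by smallest p in P7 against control. Marker lists not described above summed to 253 to 1149 CPM (B and plasma cell) and 64.7 to 243 CPM (neutrophil).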

Additional observations from a re-analysis of the deposited data

How the results depend on the processing

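Of the members' log2 fold changes under the alternatives, 552 kept direction and side of the threshold, 58 lost the call, 32 gained one and 14 changed sign. The number of members called fell to 0 (adult platelets against control), 1 (P7 platelets against control) and 0 (P7 against adult platelets) in the 4 libraries with high Igkc, and was 7, 8 and 6 in the 5 with low Igkc, where 36.9, 65.7 and 41.5% of all genes were called. The high Igkc fit has 1 residual degree of freedom, assumes that the lone control and P7 libraries vary like the adult platelet ones, and called 2.19, 12.7 and 5.97% of all genes. With library totals 3 were called for adult platelets against control, beside 26% of all genes. Without 1 library each, the counts ran from 3 to 6, from 5 to 8 and from 5 to 7. Those fits called 14.6 to 27%, 51 to 60.6% and 28.5 to 39.6% of all genes. With the replicate block the counts were 7, 8 and 7, beside 30.8, 62.5 and 43.5% of all genes. Same-numbered libraries of control and adult platelets correlated at 0.51, 0.15 and -0.07, and those of adult and P7 platelets at 0.43, 0.46 and -0.18. Deviations within a group of 3 depend on each other, so these values cannot tell whether the numbers pair the libraries. In these comparisons the block added Atp6v1a for adult platelets against control (adjusted p = 0.0451) and Atp6v0a1 for P7 against adult platelets (-0.18, adjusted p = 0.0285). It changed no other call but those in the report.

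Changes of sign were as follows, and the cause was not tested. For adult platelets against control, Atp6v0d1 was -0.0460 in low Igkc libraries, -0.0141 with library totals and -0.0188 without adult platelet replicate 1 (range without 1 library -0.0188 to 0.109). Atp6v1b2 was -0.01 in high Igkc libraries (-0.00859) and with library totals (-0.0150). Atp6v0d2 was 1.63 in high Igkc libraries, 0.93 without control replicate 3, 0.08 without adult platelet replicate 1 and 0.05 without adult platelet replicate 2 (range without 1 library -1.52 to 0.93). For P7 platelets against control, library totals gave -0.0343 for Atp6v0a1, -0.13 for Atp6v1b2 and -0.18 for Atp6v1d, and upper-quartile factors -0.000539 for Atp6v1d. For P7 against adult platelets, library totals gave -0.12 for Atp6v1b2. Atp6v0d2 had the fewest reads of the members, 110 in all 9 libraries.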
